A study of Mus musculus with 8 samples.

Results

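The genes described here are 36 genes of cholesterol and fatty acid synthesis and their regulators, out of 23100 genes in the table. They were listed by symbol: the sterol-sensing regulators, the enzymes of the mevalonate and cholesterol pathway, a sterol carrier, and the enzymes that supply, build, elongate and desaturate fatty acids. All 36 symbols were found and 35 had enough counts to be tested. The study asked which genes respond to Zac1, the zinc finger protein made from the imprinted gene Plagl1, in Min6 cells, a line derived from a mouse insulinoma. Cells were transiently transfected by lipofection with pRK5-Zac1 or, as the negative control, with pRK5-NLSeGFP, which encodes a nuclear green fluorescent protein, and RNA was taken 16 h later. Each group held 4 libraries, numbered 1, 2, 3 and 5, which the design text calls biological replicates. The share of cells that took up plasmid is not given in the sources used here, so each value averages over transfected and untransfected cells.

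Cholesterol is built from acetyl-CoA through mevalonate, isoprenoid units, squalene and a series of sterol intermediates. The genes of this route are switched on together by the transcription factor SREBP-2, and those of fatty acid synthesis mainly by SREBP-1, which are made as precursors in the membrane of the endoplasmic reticulum. When sterols are low, the escort protein Scap carries the precursors to the Golgi for cleavage, and when sterols are high the Insig proteins hold Scap back. In beta cells, part of the glucose carbon leaves the mitochondria as citrate and can be turned into acetyl-CoA for lipid synthesis.

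Library totals ran from 34729182 to 42446737 counts in the Zac1 group and from 30548923 to 35022857 in the control group. Levels are CPM, counts scaled to a common library total with TMM factors, and are given as mean ± SD over n = 4 libraries per group. Plagl1 stood at 4631 ± 778 CPM in Zac1 libraries and 77.8 ± 7.38 CPM in control libraries, plasmid-derived and endogenous reads together (log2 fold change 5.90 ± 0.13, SE; edgeR adjusted p = 1.45e-09). All 12 beta cell markers had a mean of at least 1 CPM over the 8 libraries. The summed level of 7 fibroblast, 8 exocrine, 5 endothelial and 6 leukocyte markers stayed below 7.88 CPM per list in every library. The glucagon gene Gcg, an alpha cell marker, was present in both groups, and the 7 other-islet markers summed to 1333 to 2126 CPM in Zac1 and 1239 to 1678 CPM in control libraries. The 6 hepatocyte and adipocyte markers summed to 1278 to 1763 CPM in Zac1 and 1358 to 1663 CPM in control libraries. Of these, Ttr, which alpha cells also make, was the 1 marker with a mean of at least 1 CPM. The libraries numbered 5 stood apart in both groups, where chi-square divided by its degrees of freedom was 14.7 to 28.2 for a pair that held one of them and 8.42 to 11.7 for the remaining pairs of a group, so the called gene is also given without them, and the values of other members that turned or moved most are given in the closing section.

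Among the 35 tested genes, 1 rose with Zac1 and 0 fell. Fads3, a member of the fatty acid desaturase family whose mammalian enzyme acts on sphingoid bases, stood at 1.77, 1.87, 1.33 and 1.70 CPM in Zac1 libraries 1, 2, 3 and 5, against 0.614, 0.966, 0.251 and 0.425 CPM in the control libraries of the same numbers. The groups did not overlap, and the lowest Zac1 library was above the highest control library. The fold change was 2.90 (95% interval 1.88 to 4.46; log2 1.53 ± 0.29, SE; edgeR adjusted p = 0.00796). Without both libraries numbered 5 the log2 fold change was 1.42 (edgeR adjusted p = 0.0259). These levels rest on 74, 66, 55 and 72 counts in Zac1 and 21, 34, 8 and 13 counts in control libraries, so the size of the difference is less precise than for the other members. Fads3 cleared the level filter in 4 Zac1 and 3 control libraries, where 4 in all were needed. Over all genes tested, 2.18% were called at the same threshold, 2.15% higher and 0.0349% lower. The single call among 35 tested members stands near that background. With the replicate number as a block the members' calls were the same 1 gene, where 4.38% of all genes were called. In bulk RNA, more cells with a transcript and more transcript per cell cannot be told apart.

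Fads3 lies beside Fads2 on chromosome 19, at chr19:10041569-10060110 on the plus strand in the GRCm38 annotation of GENCODE, and no exon of another gene in the table overlaps its exons. No change was called in Fads2 or in Fads1, which lies beyond Fads2, and the gene on the other side of Fads3 was not examined. Fads2, the delta-6 desaturase that starts the making of long polyunsaturated fatty acids, averaged 110 ± 4.04 CPM in Zac1 and 111 ± 1.57 CPM in control libraries, a fold change of 0.987 (95% interval 0.924 to 1.05; edgeR adjusted p = 0.979). Fads1, the delta-5 desaturase of the same route, averaged 305 ± 10.2 CPM in Zac1 and 319 ± 15.3 CPM in control libraries, a fold change of 0.956 (0.890 to 1.03; edgeR adjusted p = 0.899). The intervals of Fads2 and Fads1 lie wholly below the interval of Fads3. Per length, Fads3 had 0.440 ± 0.0629 CPM per kb of exon in Zac1 and 0.149 ± 0.0808 CPM per kb in control libraries, while Fads2 had 33.3 ± 1.23 CPM per kb in Zac1 and 33.7 ± 0.475 CPM per kb in control libraries.

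The upstream windows of Fads3 and of its neighbour Fads2 are printed because the 2 genes sit side by side and gave different values, and that of Insig1 because it had the smallest p among members with a lower fitted level. Each is the stretch of 250 bases before the transcription start from RefSeq, build GRCm38.p6, read 5′ to 3′ on the gene's strand. Capitals mark CCAAT boxes, GC boxes and E-boxes on either strand. Fads3 is chr19:10041298-10041547 on the plus strand, Fads2 is chr19:10101504-10101753 on the minus strand, and Insig1 is chr5:28071162-28071411 on the plus strand. In the GENCODE annotation Fads2 starts at base 10101746 and Insig1 at base 28071363, each within its window. Most of the Fads2 window and the last part of the Insig1 window therefore lie inside the gene as GENCODE places it.
Fads3: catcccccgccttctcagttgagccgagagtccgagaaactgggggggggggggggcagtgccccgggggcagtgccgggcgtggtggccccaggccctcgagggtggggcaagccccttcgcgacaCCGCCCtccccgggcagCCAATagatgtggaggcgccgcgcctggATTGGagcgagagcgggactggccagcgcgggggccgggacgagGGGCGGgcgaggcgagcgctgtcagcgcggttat
Fads2: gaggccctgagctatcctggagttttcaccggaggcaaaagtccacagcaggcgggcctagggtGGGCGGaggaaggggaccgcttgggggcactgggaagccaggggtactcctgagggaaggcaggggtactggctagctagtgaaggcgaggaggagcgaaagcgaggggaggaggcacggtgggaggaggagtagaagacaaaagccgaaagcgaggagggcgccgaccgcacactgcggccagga
Insig1: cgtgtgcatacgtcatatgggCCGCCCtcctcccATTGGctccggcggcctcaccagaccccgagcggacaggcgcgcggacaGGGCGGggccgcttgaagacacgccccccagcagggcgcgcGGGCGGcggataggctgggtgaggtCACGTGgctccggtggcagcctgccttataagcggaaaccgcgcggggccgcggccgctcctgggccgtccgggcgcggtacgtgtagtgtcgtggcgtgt
The Fads3 window holds 2 CCAAT boxes, the letters bound by NF-Y, and 2 GC boxes (GGGCGG), the letters bound by Sp1. The Fads2 window holds 1 GC box and no CCAAT. The Insig1 window holds 1 CCAAT box, 3 GC boxes and 1 E-box (CACGTG), a letter pattern that SREBP-1 can bind. RefSeq windows were found for 29 of the 36 members, 38 windows in all, and some genes, such as Dhcr7 and Insig2, have more than 1. No window was found for Fads1, Scd1, Scd2, Fdps, Fdft1, Sqle and Stard4, so these were not searched. CCAAT occurs in 24 of the 38 (63.2%), against 33.9% of 32851 windows of all genes, and GGGCGG in 26 (68.4%) against 32.7%. CACGTG occurs in 6 (15.8%) against 6.02%, and the sterol regulatory element core TCACNCCAC in 1 (2.63%), that of Hmgcs1, against 1.05%. GGGGCCCC, a sequence reported to bind Zac1, occurs in 0 of the 38 windows and in 0.889% of all windows. Both strands were searched, and these matches describe letters in short windows only. Some windows lie partly or wholly inside the gene as GENCODE places it. That of Acaca begins at base 84195188 of chromosome 11, and the gene at base 84129672.

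The genes differed widely in level, with the same genes at the top in both groups. Acly, which splits exported citrate into acetyl-CoA, stood far above the rest at 4015 ± 231 CPM in Zac1 and 4157 ± 173 CPM in control libraries, and ranked between 6 and 8 among 23100 genes in each Zac1 library and 6 in each control library. It alone made up 48.0% to 50.8% of the summed level of all members in Zac1 and 46.7% to 50.5% in control libraries. Per length, Acly had 761 ± 43.7 CPM per kb of exon in Zac1 and 788 ± 32.8 CPM per kb in control libraries. Scd2, a stearoyl-CoA desaturase that places the first double bond in saturated fatty acids, came next with 263 ± 32.6 CPM per kb in Zac1 and 289 ± 41.1 CPM per kb in control libraries. These levels were separated by more than their spread from each other and from Fads1, the third, at 63.4 ± 2.12 CPM per kb in Zac1 and 66.3 ± 3.19 CPM per kb in control libraries. Fads1 and Insig1 overlapped, with Insig1 at 59.7 ± 2.21 CPM per kb in Zac1 and 65.5 ± 5.87 CPM per kb in control libraries. From Pmvk at 54.6 ± 2.08 CPM per kb in Zac1 and 55.1 ± 3.63 CPM per kb in control libraries, the members went down with many overlaps to Hsd17b7 at 2.49 ± 0.167 CPM per kb in Zac1 and 2.51 ± 0.307 CPM per kb in control libraries. Acacb, the acetyl-CoA carboxylase that regulates fatty acid oxidation at mitochondria, was low at 0.181 ± 0.0186 CPM per kb in Zac1 and 0.200 ± 0.0438 CPM per kb in control libraries.

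**Figure D1:**
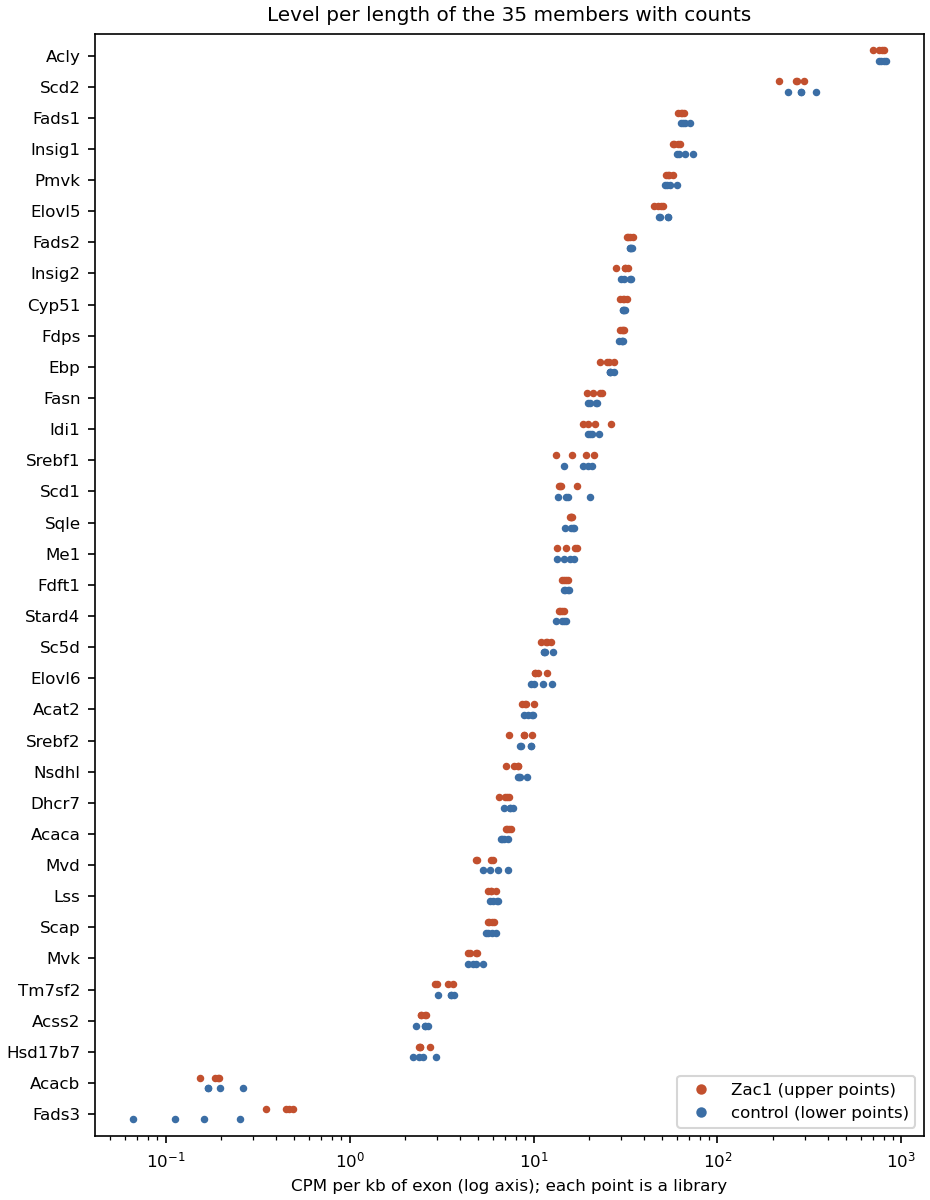
CPM per kb of exon on a log axis for the 35 members with counts, ordered by the control mean; each point is 1 library, Zac1 above control for each gene. Acly and Scd2 stand apart at the high end, Acacb and Fads3 at the low end, and only for Fads3 do the Zac1 points all lie above the control points.

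Hmgcs1, the enzyme that makes HMG-CoA at the entry of the mevalonate pathway, is listed at 0 counts in all 8 libraries. The enzymes before and after it had counts in every library, with Acat2, which joins acetyl-CoA units, at 23.5 ± 1.55 CPM in Zac1 and 24.2 ± 1.23 CPM in control libraries, and Mvk, the mevalonate kinase, at 12.5 ± 0.737 CPM in Zac1 and 12.9 ± 0.979 CPM in control libraries. Counts of 0 throughout were listed for 3200 of 23100 genes (13.9%). Nothing can be said about the level of Hmgcs1 from a count of 0 in a table whose annotation is not given in the sources used here.

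The 5 regulators of sterol sensing gave no call, where 2.18% of all genes tested were called. Insig1, which holds Scap in the endoplasmic reticulum and is itself an SREBP target, had 193, 188, 178 and 181 CPM in Zac1 libraries 1, 2, 3 and 5, against 227, 187, 205 and 190 CPM in control libraries. The groups overlapped through control libraries 2 and 5. Its fold change was 0.913 (95% interval 0.835 to 0.997; edgeR unadjusted p = 0.0437, adjusted p = 0.626 from the fit across all genes). Without control library 1, the highest of the 8, the log2 fold change was -0.067, against -0.13 with all libraries. Before adjustment, 1 of 35 members (Fads3) passed the 0.05 mark as higher and 1 (Insig1) as lower, where 5.65% of all genes tested passed as higher, 1.93% as lower and 7.58% in either direction. Insig2, the second retention protein, averaged 107 ± 6.41 CPM in Zac1 and 111 ± 6.65 CPM in control libraries (fold change 0.964, interval 0.886 to 1.05). Scap, the escort protein, averaged 43.6 ± 1.43 CPM in Zac1 and 43.5 ± 2.28 CPM in control libraries (fold change 1.002, 0.924 to 1.09).

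In both genes that encode the SREBP factors, the group means differed by less than the SD within a group. Srebf1 stood at 120, 91.5, 109 and 74.4 CPM in Zac1 libraries 1, 2, 3 and 5, against 117, 105, 111 and 82.6 CPM in control libraries (fold change 0.949, 95% interval 0.728 to 1.24; edgeR adjusted p = 0.978). The library numbered 5 was the lowest and the library numbered 1 the highest of each group, and the groups overlapped over most of their range. Of the exon bases of Srebf1, 1.94% are shared with Rai1 on the opposite strand. Srebf2 stood at 63.7, 64.2, 70.2 and 52.8 CPM in Zac1 libraries, against 61.6, 69.7, 69.7 and 60.9 CPM in control libraries (fold change 0.957, 0.850 to 1.08; edgeR adjusted p = 0.960), again with the library numbered 5 lowest in each group.

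None of the 6 tested genes of the mevalonate and isoprenoid steps was called, where 2.18% of all genes tested were called. Their log2 fold changes ran from -0.20 to 0.05. Mvd, the mevalonate diphosphate decarboxylase, had the largest of these, at 11.2, 9.05, 10.9 and 9.11 CPM in Zac1 libraries 1, 2, 3 and 5, against 10.8, 12.0, 13.5 and 9.92 CPM in control libraries. The groups overlapped, and the fold change was 0.871 (95% interval 0.742 to 1.02; edgeR adjusted p = 0.766). Idi1, the isopentenyl diphosphate isomerase, stood at 65.4, 69.3, 75.5 and 92.3 CPM in Zac1 libraries, against 71.2, 69.4, 72.7 and 79.8 CPM in control libraries. Here the library numbered 5 was the highest of each group, opposite to Srebf1 (fold change 1.03, 0.895 to 1.19). Fdps, which makes farnesyl diphosphate, gave one of the narrowest intervals, at 128 ± 2.72 CPM in Zac1 and 127 ± 3.03 CPM in control libraries (fold change 1.01, 0.948 to 1.08). Pmvk, the phosphomevalonate kinase, had a fold change of 0.991 (0.915 to 1.07), Mvk of 0.975 (0.865 to 1.10) and Acat2 of 0.972 (0.880 to 1.07).

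From squalene to cholesterol, 0 of 10 enzymes were called, where 2.18% of all genes tested were called. Fitted values ran from -0.13 to 0.0026 on the log2 scale. With TMM scaling 9 of the 10 were below 0, where 54.2% of all genes were. With library totals only 6 of the 10 were, and 6517 of all 14331 genes. Nsdhl, a dehydrogenase that takes part in removing methyl groups from the sterol ring, was at the low end, with 20.1, 23.6, 22.3 and 23.4 CPM in Zac1 libraries 1, 2, 3 and 5, against 23.6, 23.9, 24.1 and 26.3 CPM in control libraries. The highest Zac1 library just exceeded the lowest control library, and the fold change was 0.914 (95% interval 0.826 to 1.01; edgeR adjusted p = 0.754). Sqle, the squalene epoxidase and a rate-limiting step of the later pathway, averaged 88.6 ± 1.08 CPM in Zac1 and 88.5 ± 4.47 CPM in control libraries (fold change 1.002, 0.933 to 1.07). Cyp51, the lanosterol demethylase, averaged 136 ± 4.90 CPM in Zac1 and 137 ± 1.32 CPM in control libraries (fold change 0.995, 0.932 to 1.06). Dhcr7, which makes cholesterol from its last precursor, averaged 40.8 ± 2.1 CPM in Zac1 and 43.0 ± 1.93 CPM in control libraries (fold change 0.949, 0.872 to 1.03). The squalene synthase Fdft1 (0.978), the lanosterol synthase Lss (0.965), the sterol reductase Tm7sf2 (0.939), Hsd17b7 (0.992), the isomerase Ebp (0.960) and the desaturase Sc5d (0.996) had fold changes whose intervals all include 1. Of the exon bases of Fdft1, 18.3% are shared with Ctsb, which runs the other way, and its value is uncertain if counting ignored strand; smaller overlaps of this kind touch Lss, Cyp51, Me1 and Acss2. Stard4, a carrier that moves cholesterol between membranes, averaged 79.2 ± 2.36 CPM in Zac1 and 79.8 ± 4.26 CPM in control libraries (fold change 0.993, 0.922 to 1.07).

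The supply of acetyl-CoA and NADPH and the core of fatty acid synthesis gave no call either, against 2.18% of all genes tested. Acly stood at 3965, 4257, 4120 and 3718 CPM in Zac1 libraries 1, 2, 3 and 5, against 4070, 4357, 4236 and 3966 CPM in control libraries. The groups overlapped over most of their range (fold change 0.966, 95% interval 0.889 to 1.05; edgeR adjusted p = 0.954). Acss2, which makes acetyl-CoA from acetate, had a fold change of 0.994 (0.906 to 1.09), and Me1, the cytosolic malic enzyme that yields NADPH, of 1.03 (0.910 to 1.17). Acaca, the acetyl-CoA carboxylase that commits carbon to fatty acids, stood at 122, 129, 125 and 121 CPM in Zac1 libraries, against 114, 118, 115 and 124 CPM in control libraries. Only control library 5 reached into the Zac1 range (fold change 1.05, 0.985 to 1.13; edgeR adjusted p = 0.815). Fasn, the fatty acid synthase, averaged 239 ± 20.4 CPM in Zac1 and 230 ± 12.7 CPM in control libraries (fold change 1.04, 0.948 to 1.14). Acacb, at 1.75 ± 0.180 CPM in Zac1 and 1.93 ± 0.422 CPM in control libraries, had a wide interval (fold change 0.904, 0.695 to 1.18).

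Among the elongases and desaturases other than Fads3, 0 of 6 were called, where 2.18% of all genes tested were called. All 6 had a fitted value below 0 with TMM scaling, where 54.2% of all genes did. With library totals only 5 of the 6 did, and 6517 of all 14331 genes. Scd2 stood at 1611, 1467, 1473 and 1186 CPM in Zac1 libraries 1, 2, 3 and 5, against 1872, 1564, 1548 and 1326 CPM in control libraries (fold change 0.909, 95% interval 0.766 to 1.08; edgeR adjusted p = 0.928). Its log2 fold change was -0.14 with all libraries, -0.039 without control library 1 and -0.050 without Zac1 library 5. Its close relative Scd1 stood at 84.0, 69.2, 68.0 and 66.9 CPM in Zac1 libraries, against 98.6, 75.1, 73.5 and 66.6 CPM in control libraries (fold change 0.918, 0.762 to 1.11; edgeR adjusted p = 0.943). In both genes the library numbered 1 was the highest and the library numbered 5 the lowest of each group. The counts of Scd2 were 17.7 to 21.7 times those of Scd1 in Zac1 and 19.0 to 21.1 times in control libraries, and since the coding sequences of these paralogs are alike, the division of reads between them is uncertain. Elovl5, which elongates polyunsaturated fatty acids, averaged 170 ± 7.41 CPM in Zac1 and 180 ± 10.4 CPM in control libraries (fold change 0.940, 0.870 to 1.02). Elovl6, which elongates palmitate, averaged 68.6 ± 5.31 CPM in Zac1 and 70.2 ± 8.52 CPM in control libraries (fold change 0.978, 0.867 to 1.10), and here the library numbered 5 was the highest in each group.

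**Figure D2:**
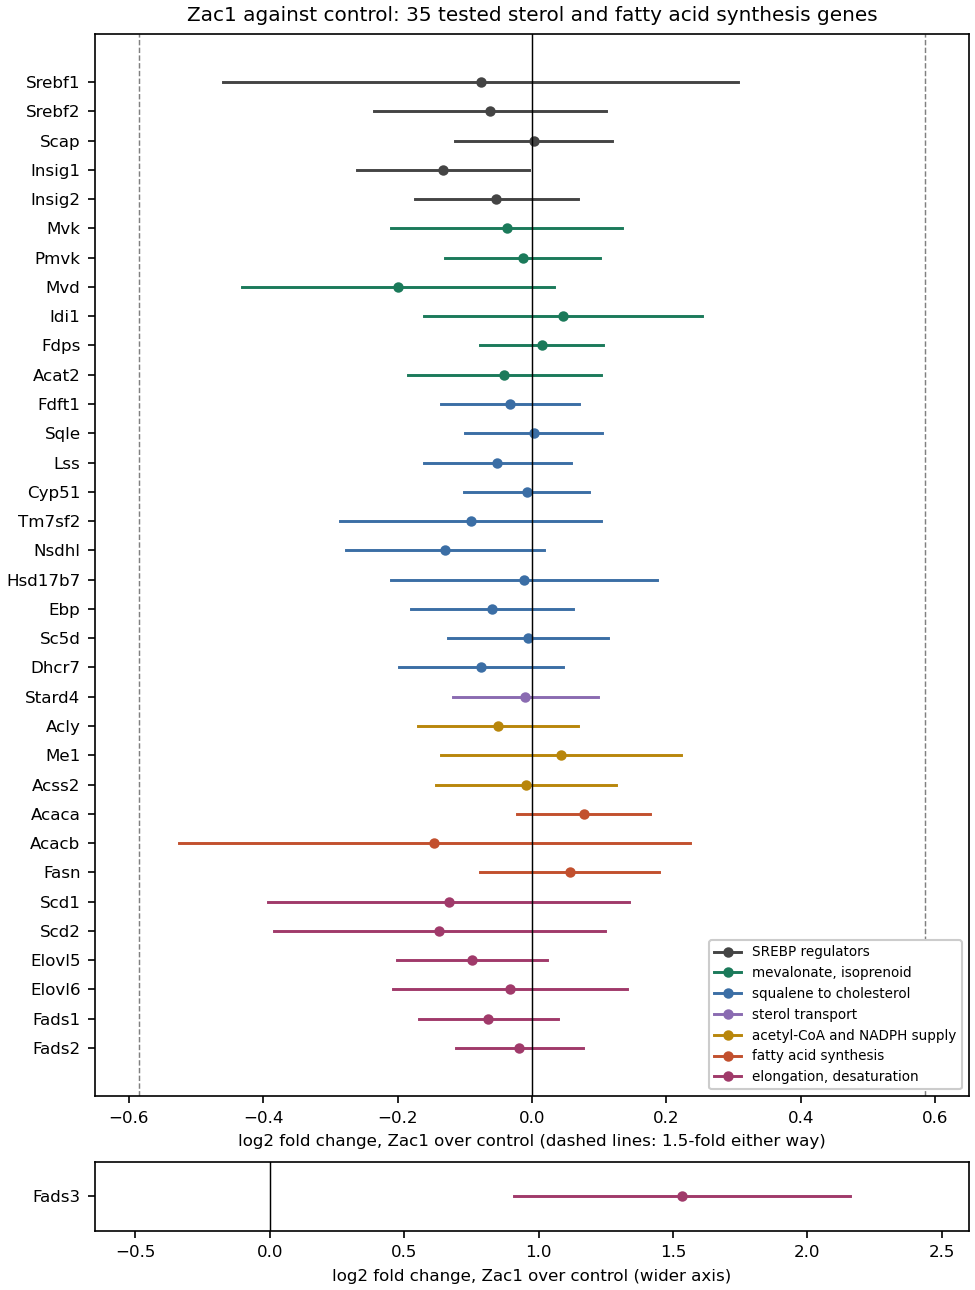
Log2 fold change of Zac1 over control (points) with 95% intervals (lines) for the 35 tested members, coloured by step; dashed lines mark 1.5-fold either way, and Fads3 is drawn on a wider axis below. Fads3 at 1.53 lies outside the lines and the intervals of the 34 others lie inside them.

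The intervals bound how large an unseen change could be in the average over transfected and untransfected cells, not in transfected cells alone. For 34 of 35 members the 95% interval of the fold change lay within 1.5-fold either way, where 82.3% of all genes tested did, and for 27 it lay within 1.2-fold, where 55.4% of all genes did. These intervals are not adjusted across genes. Low counts widen an interval, and the compared sets differ in level. A mean of at least 50 counts was reached by 34 of 35 members and by 12219 of 14331 genes tested.

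The fitted values as a set lay slightly below 0. The median log2 fold change over the 35 members was -0.037, and -0.0090 over all genes tested. With TMM scaling 27 of 35 members were below 0, where 54.2% of all genes were, and with library totals only 20 of 35 members and 6517 of all 14331 genes were. The member median was -0.018 with library totals only, and that of all genes 0.0095. Without control library 3 the member median was -0.017. The member median minus that of all genes was -0.028 under either scaling. Library by library, the median of the members' deviations from the control mean was -0.038, -0.027, -0.017 and -0.047 on the log2 scale in Zac1 libraries 1, 2, 3 and 5, against -0.0077, 0.0013, 0.019 and -0.034 in control libraries. Control library 5 lay among the Zac1 libraries, so the groups overlapped. The members together held 0.831%, 0.850%, 0.832% and 0.749% of all counts in Zac1 libraries, against 0.859%, 0.867%, 0.835% and 0.795% in control libraries, most of it from Acly and Scd2.

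**Figure D3:**
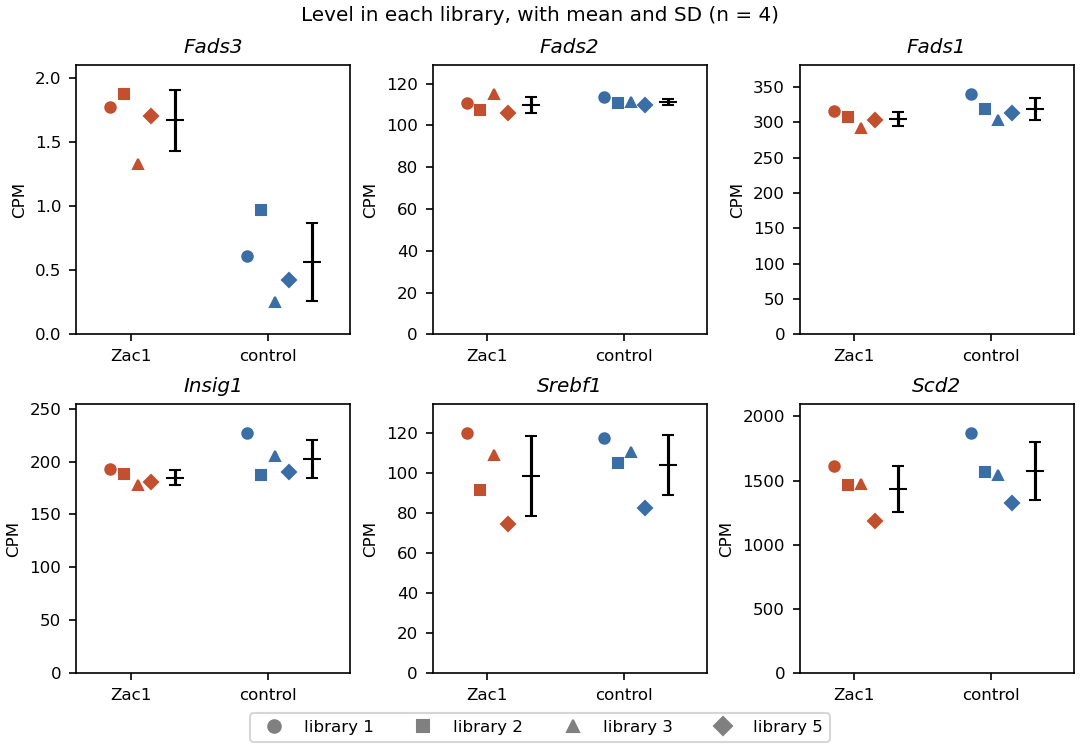
CPM in each library for 6 members, Zac1 left of control, with marker shape for the library number and mean ± SD beside each group (n = 4). Fads3 separates the groups, Fads2 and Fads1 do not, and in Srebf1 and Scd2 the library numbered 5 is the lowest of both groups.

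The members differed in how much they varied between libraries of a group. The within-group SD on the log2 scale had a median of 0.084 over the 35 members, and of 0.10 over the 12219 tested genes whose mean count was 50 or more. After Fads3 (0.60), whose mean count was below 50, the most variable members were Srebf1 (0.27), Acacb (0.24), Scd1 (0.20), Scd2 (0.20), Mvd (0.18) and Idi1 (0.17), and Srebf1 varied more than 93.3% of those 12219 genes. Fdps (0.033), Cyp51 (0.038) and Fads2 (0.040) were the steadiest, and Fdps varied more than 1.5% of those genes. The libraries numbered 5 were the lowest of both groups in 10 of 35 members, among them Srebf1, Srebf2, Scd1, Scd2, Fasn and Acly, where this held for 17.8% of all genes tested. They were the highest of both groups in 5 members, among them Idi1, Elovl6 and Me1, where this held for 16.0% of all genes. The libraries numbered 1 were the highest of both groups in 6 members, namely Srebf1, Insig1, Insig2, Scd1, Scd2 and Fads1, where this held for 11.0% of all genes. The labels do not say what the library numbers stand for, and the part of culture or preparation in this pattern was not tested.

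**Figure D4:**
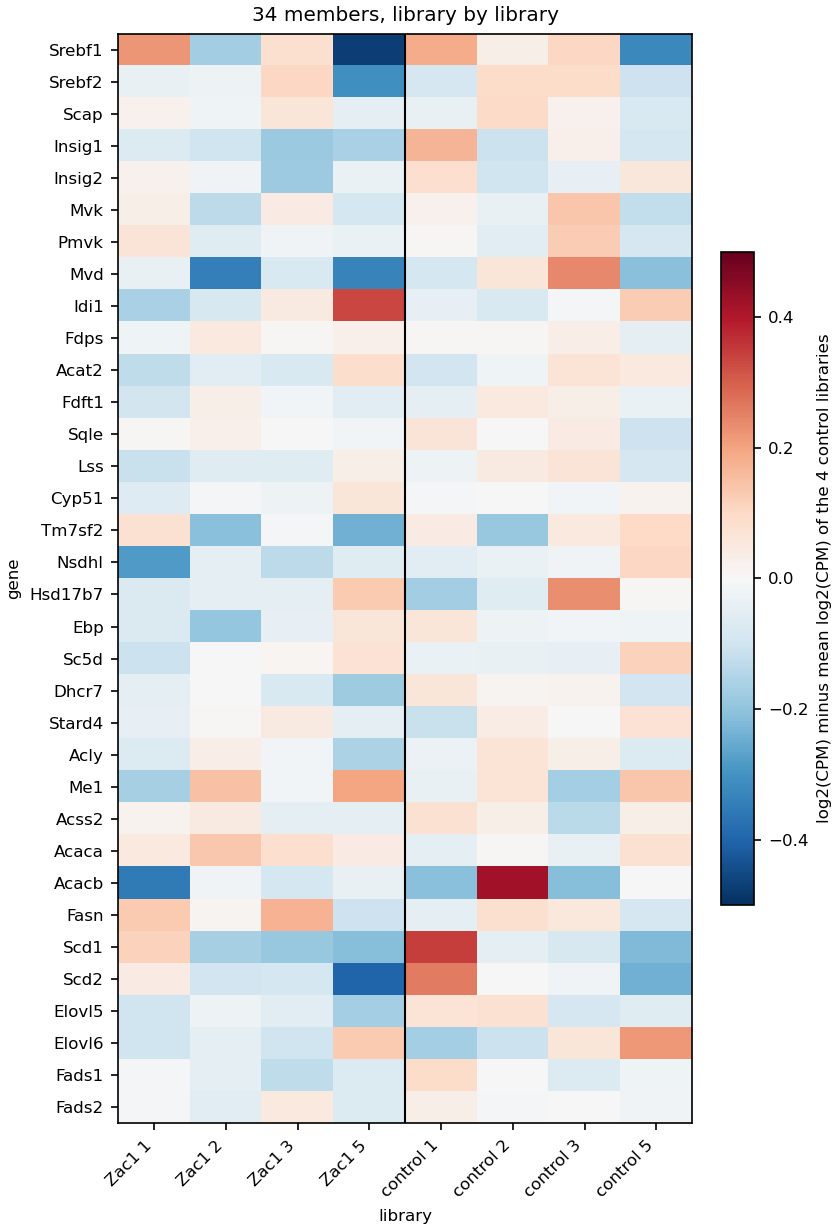
Log2 CPM minus the mean log2 CPM of the 4 control libraries for the 34 tested members other than Fads3 (rows, by step) in the 8 libraries (columns, Zac1 left of the line). The deepest values sit in single libraries, such as Srebf1 and Scd2 in the libraries numbered 5, and few rows change colour between the groups.

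Genes around these pathways, from 7 lists with 104 tested members, gave 0 calls in the edgeR fit on group alone, where 2.18% of all genes tested were called. Before adjustment 1 was higher (Agpat2) and 2 were lower (Tecr and Agpat1), where 5.65% of all genes were higher and 1.93% lower. DESeq2 and limma-voom also called 0. Medians of the lists below move up by under 0.02 with library totals only, which turns those of the further fatty acid genes (0.0044) and of fatty acid oxidation (0.0068) positive. The 11 further sterol and isoprenoid genes had a median log2 fold change of -0.040, with Pdss2 at -0.14 ± 0.10 and Pdss1 at 0.15 ± 0.10 (SE), the subunits of the enzyme that makes the ubiquinone side chain. The 12 genes of SREBP processing and transport, such as Erlin1 (0.058 ± 0.044) and Sec24a (-0.069 ± 0.055), had a median of -0.029 and intervals all within 1.2-fold. Among 24 further fatty acid synthesis genes (median -0.014), Tecr, the last enzyme of the elongation cycle, was lowest in p at 261 ± 16.3 CPM in Zac1 and 290 ± 13.5 CPM in control libraries (log2 -0.15 ± 0.05; unadjusted p = 0.0157, edgeR adjusted p = 0.363). Elovl2, an elongase of very long polyunsaturated fatty acids, had 2.74 ± 0.143 CPM in Zac1 and 2.24 ± 0.271 CPM in control libraries without overlap (log2 0.29 ± 0.14; edgeR adjusted p = 0.667). Of the 12 genes of sterol transport and the LXR response (median -0.037), the cholesterol exporter Abca1 had 0.14 ± 0.07 and the LXR receptor gene Nr1h2 -0.18 ± 0.10.

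In the lists farther from sterol sensing, the 18 genes of glycerolipid synthesis had a median of 0.025. The acyltransferase Agpat1, which makes phosphatidic acid, averaged 71.9 ± 5.55 CPM in Zac1 and 80.9 ± 4.79 CPM in control libraries (log2 -0.17 ± 0.06; edgeR adjusted p = 0.347), and its relative Agpat2 2.36 ± 0.166 CPM in Zac1 and 1.85 ± 0.285 CPM in control libraries (log2 0.35 ± 0.15; edgeR adjusted p = 0.601). All 10 genes of NADPH supply had a fitted value below 0 with TMM scaling (median -0.055), where 54.2% of all genes tested did. With library totals only 9 did (median -0.036), and 6517 of all 14331 genes. In the edgeR fit 0 of the 10 had an unadjusted p under 0.05. The lowest p among them was that of Idh1, the cytosolic isocitrate dehydrogenase, at 94.2 ± 0.857 CPM in Zac1 and 98.9 ± 3.75 CPM in control libraries (log2 -0.071 ± 0.045; edgeR adjusted p = 0.839), followed by Taldo1, the transaldolase, at -0.10 ± 0.07. The 17 genes of fatty acid oxidation had a median of -0.011. Acaa2, the mitochondrial thiolase, had a log2 fold change of 0.20 ± 0.11, the dehydrogenase Acadl of 0.14 ± 0.08, and Cpt1a, which admits long-chain fatty acids to mitochondria, stood at 30.4 ± 6.31 CPM in Zac1 and 25.9 ± 3.84 CPM in control libraries (log2 0.23 ± 0.15; edgeR adjusted p = 0.866). Groups did not overlap in 1 of 35 members and in 5 of the 104 listed genes (Agpat2, Elovl2, Elovl4, Erlin2 and Idh1), where this held for 5.79% of all genes tested.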

How the data were processed

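RNA of 8 Min6 libraries was sequenced from stranded mRNA preparations, per the labels' protocols. The authors deposited raw counts for 23100 genes. The tools bcl2fastq 2.17, FastQC, TopHat2 2.1.1, Bowtie2 2.2.8, HTSeq 0.6.1p1 and build mm9 are named in the submitters' processing notes. No source used here gives the annotation, strand setting or filters.

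From these counts, edgeR 4.0.16 in R 4.3.3 kept 14331 genes (filterByExpr, minimum count 10), scaled totals by TMM and ran its robust quasi-likelihood F test on group, with Benjamini-Hochberg adjustment over all genes tested and a threshold of 0.05. A called gene is past it. Fold changes are Zac1 over control. The SE is the size of the log2 fold change over the root of F, and 95% intervals use the test's degrees of freedom. The steps were tested on simulated data. CPM per kb uses the exon union of GENCODE M21 (GRCm38), which may differ from the authors' annotation. Alternatives were DESeq2 1.42.0, limma-voom (limma 3.58.1), other scalings and filters, the replicate number as a block, and left-out libraries. Precision is limited by 4 libraries per group and, for low genes, by counting. Every pair of libraries within a group differed beyond counting noise, so no library was merged.

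All members are named, in full where called or not overlapping; library values of further members are given as a description. From each of 7 lists the 2 genes with the smallest p and any gene called with or without the block are named, in the text or in the closing section. The members and lists were chosen with earlier results of these data known.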

Additional observations from a re-analysis of the deposited data

Results flagged for a closer look

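In 4 of 70 sets of 4 libraries, 1 library lay far from the others of its group, with a gap to its nearest neighbour, as a part of the group's range, above Dixon's 95% critical value. Chance flags about 5% of sets. Scd1 stood at 84.0 CPM in Zac1 library 1, the highest of its group. Hsd17b7 stood at 14.0 CPM in Zac1 library 5, also the highest. Ebp stood at 63.6 CPM in control library 1 and Sc5d at 62.0 CPM in control library 5, each the highest of its group.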

How the results depend on the processing

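Fads3 stayed called in each of the 15 alternatives in which it was tested, with a log2 fold change of 1.30 to 1.94 and an adjusted p of 2.51e-05 to 0.0340. The stricter filter, a mean of at least 50 counts, removes it, which leaves 0 members called higher. No other member was called under any alternative run. Over all genes, 308 were higher and 5 lower; the stricter filter gave 99 and 0, DESeq2 8 lower, and leaving out 1 library 1 to 5 lower (5 without Zac1 library 5, and 1 to 3 without any other, the least without control library 3). The members' median log2 fold change of -0.037 was -0.018 with library totals only and -0.038 to -0.017 without 1 library, the nearest to 0 without control library 3, so its size depends on scaling and on that library.

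Among uncalled members, signs turned without a call. With library totals only these were Pmvk (0.0058), Cyp51 (0.0103), Hsd17b7 (0.0071), Sc5d (0.0118), Stard4 (0.0081), Fads2 (0.0001) and Acss2 (0.0096). Without both libraries numbered 5 they were Idi1 (-0.0136), Sqle (-0.0172), Sc5d (0.0124), Stard4 (0.0335) and Acss2 (0.0198), and of those that kept their sign Tm7sf2 (-0.0019, against -0.091 with all libraries), Srebf2 (-0.015, against -0.063), Lss (-0.099, against -0.051), Ebp (-0.10, against -0.059) and Acaca (0.12, against 0.077) were among the most moved. Leaving out 1 library gave ranges that cross 0 for Srebf1 (-0.18 to 0.045), Srebf2 (-0.12 to 0.018), Scap (-0.017 to 0.042), Mvk (-0.068 to 0.015), Pmvk (-0.040 to 0.037), Idi1 (-0.058 to 0.11), Sqle (-0.023 to 0.030), Cyp51 (-0.025 to 0.011), Hsd17b7 (-0.063 to 0.077), Sc5d (-0.027 to 0.041), Stard4 (-0.040 to 0.022), Acacb (-0.21 to 0.025), Scd1 (-0.21 to 0.011), Elovl6 (-0.082 to 0.051), Fads2 (-0.042 to 0.0040), Me1 (-0.0047 to 0.11) and Acss2 (-0.046 to 0.022). Acacb (-0.15 with all libraries) turned without control library 2 and Scd1 (-0.12) without control library 1. The cause was not tested.

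The deviations of same-numbered libraries correlated at 0.291, 0.048, 0.143 and 0.292 (numbers 1, 2, 3 and 5). The replicate numbers were not taken to pair the libraries, since number 2 missed the limit of 0.1. Each Zac1 library still correlated most with the control library of its own number. Control library 2 correlated more with Zac1 library 3 (0.0788) than with Zac1 library 2. With the replicate number as a block the calls were 512 higher and 116 lower (4.38% of all genes). Fads3 remained the one member called (log2 1.58). Scd2 and Insig1 stayed uncalled, at edgeR adjusted p = 0.0647 and 0.0743, against 0.928 and 0.626 without the block. The SE of Scd2 was 0.042 with the block and 0.11 without it, and that of Srebf1 0.043 and 0.17. Of the pathway lists, Cpt1a was higher (log2 0.22, edgeR adjusted p = 0.0138). Mid1ip1, an activator of acetyl-CoA carboxylase, and Agpat1 were lower (-0.20 and -0.17, edgeR adjusted p = 0.0182 and 0.00922). These list calls were 1 higher and 2 lower. The effect of the replicate number itself is not reported, since number 2 missed the limit. Depth limits Fads3 and Acacb, the 2 members near 1 CPM.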
